A study of Mus musculus with 4 samples.

Results

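Of the 31055 genes in the count tables, 17 encode T-box transcription factors, and 8 of these were followed by their gene symbols across the cell types and both genotypes: *T* (Brachyury), *Tbx6*, *Tbx18*, *Tbx2*, *Tbx3*, *Tbx4*, *Tbx5* and *Tbx20*. Droplet-based single-cell RNA sequencing (scRNA-seq) had been carried out on caudal tissue of E8.5 mouse embryos obtained by intercrossing *Grhl3* heterozygous mice. The wild-type (WT) group was 1 pool of cells from 5 embryos that carry both intact *Grhl3* alleles, and the *Grhl3*-null group was 1 pool of cells from 3 embryos that lack the gene throughout the body. Each pool was loaded in 2 reactions, giving 2 WT and 2 *Grhl3*-null libraries. GRHL3 is a Grainyhead-like transcription factor of the surface ectoderm that is required for closure of the caudal neural tube. Because the 2 libraries of a genotype hold cells of the same pool, every p-value below compares 2 pools and contains no spread between embryos.

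T-box proteins share a DNA-binding domain, the T-box, and act as dose-sensitive regulators of mesoderm formation and organ fields. *T* drives mesoderm formation in the primitive streak and tail bud and keeps its expression in the notochord, and in neuromesodermal progenitors (NMPs), the bipotent cells that feed both spinal cord and paraxial mesoderm, it stands on the mesodermal side against *Sox2*. *Tbx6* acts next in line and commits cells to presomitic mesoderm, while *Tbx18* sets up the anterior part of each formed somite. *Tbx2* and *Tbx3* are closely related repressors, *Tbx4* and *Tbx5* mark the hindlimb and forelimb fields respectively, *Tbx4* is also a gene of the allantois, and *Tbx5* and *Tbx20* are core factors of the heart.

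All 8 gene identifiers in the tables matched the GENCODE vM21 annotation of GRCm38 (mm10). *T* lies at chr17:8434423-8442496 and *Tbx6* at chr7:126781483-126785560, both on the plus strand. The other 6 include a pair of neighbours on each of 2 chromosomes: *Tbx2* (chr11:85832551-85841948) and *Tbx4* (chr11:85886422-85916097) are 44.5 kb apart, and *Tbx3* (chr5:119670669-119684724) and *Tbx5* (chr5:119832668-119885219) are 148 kb apart. *Tbx18* (chr9:87702800-87731260) and *Tbx20* (chr9:24718138-24774303) lie far from each other on the minus strand of chromosome 9.

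The 250 bases upstream of the start are shown for *T* and *Tbx6*, the members that act in posterior mesoderm, because *T* is a known target of canonical Wnt signalling and its pattern across the cell types was close to that of *Wnt3a* (below). The sequences were taken from the RefSeq promoter table (GRCm38.p6) and are written 5′ to 3′ on the plus strand, with matches to the Tcf/Lef motif CTTTGAA or CTTTGAT in capitals.
*T*, chr17:8434173-8434422: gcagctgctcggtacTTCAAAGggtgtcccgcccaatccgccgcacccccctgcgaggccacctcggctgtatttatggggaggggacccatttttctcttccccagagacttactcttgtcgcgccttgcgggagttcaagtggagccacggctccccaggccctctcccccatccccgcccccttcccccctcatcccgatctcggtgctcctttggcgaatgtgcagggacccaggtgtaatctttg
*Tbx6*, chr7:126781233-126781482: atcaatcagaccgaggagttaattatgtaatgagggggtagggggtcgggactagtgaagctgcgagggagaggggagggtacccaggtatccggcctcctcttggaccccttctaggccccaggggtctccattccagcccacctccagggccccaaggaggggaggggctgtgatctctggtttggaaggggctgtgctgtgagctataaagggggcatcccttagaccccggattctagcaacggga
The promoter of *T* holds 1 match, read on the minus strand, and that of *Tbx6* holds none. A match was present in 2457 of the 32851 promoters of the table (7.48%), searched on both strands over the 250 upstream bases. It is therefore a description of these letters and not evidence of binding. The T-box site AGGTGTGA was found in 368 promoters (1.12%) and in none of the 5 members in the table, which besides *T* and *Tbx6* are *Tbx4*, *Tbx18* and *Tbx20*.

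After filtering, 5459 and 5116 WT cells and 4842 and 4781 *Grhl3*-null cells remained, with medians of 33391 to 38070 unique molecular identifiers (UMIs, one per captured transcript) per cell. Any 2 libraries shared 5 to 7 of the kept cell barcodes. The cells formed 16 clusters, of which 15 could be named from the marker genes of the study, and these are called by that name with "-like". The T-box genes had been taken out of the genes used for clustering. *Grhl3* itself stood at 32.8 and 26.3 CPM (transcript counts scaled to a common library total) in the WT and 0.232 and 0.355 CPM in the *Grhl3*-null surface ectoderm/neural plate border-like cells.

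Several features of the pools move with genotype and bear on what follows. A pre-somitic mesoderm-like cluster held 508 and 491 WT cells but 3 and 3 *Grhl3*-null cells, and 984 of its WT cells were called female by *Xist* and Y-linked transcripts against 1 male. A smaller cluster of the NMP-like class held 249 and 250 WT cells and no *Grhl3*-null cell, with 488 cells called female and none male. The WT libraries held 1259 and 1206 male and 3488 and 3263 female cells, and the *Grhl3*-null libraries 2278 and 2300 male and 1821 and 1700 female cells. Summed levels of 12 posterior Hox genes were 109 and 113 CPM over all WT cells and 24.5 and 23.8 CPM over all *Grhl3*-null cells. Finally, 273, 263, 371 and 350 cells of the 4 libraries (WT first) held both male and female transcripts, with median UMIs of 76650 to 87940 against 32550 to 36710 in the other cells. Of these, 553 fell into the paraxial mesoderm-like class, 94 of 560 and 90 of 484 cells of the WT libraries and 185 of 599 and 184 of 606 of the *Grhl3*-null libraries. How far each of these features takes part in the genotype differences was not tested, and values within each sex, without the WT-only clusters and without the mixed cells are given where they change a result.

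For each class and library, all UMIs of its cells were added up and scaled to CPM, and levels are given as mean ± SD (n = 2 libraries per genotype). The classes were made from these same cells, so differences between classes are a description without a test. Shares of cells with a UMI are given after each cell was thinned to 7500 UMIs, and UMIs can also come from free RNA in the droplets. Shares are set beside those of the endothelium-like class for *T* and *Tbx6* and of the neuroepithelium-like class for the other members. For *T* the endothelium-like share is not a floor, since the Mesenchyme 2-like (5.38% in WT and 2.37% in *Grhl3*-null) and erythroid-like cells (6.21% and 3.25%) lay lower.

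**Figure D1:**
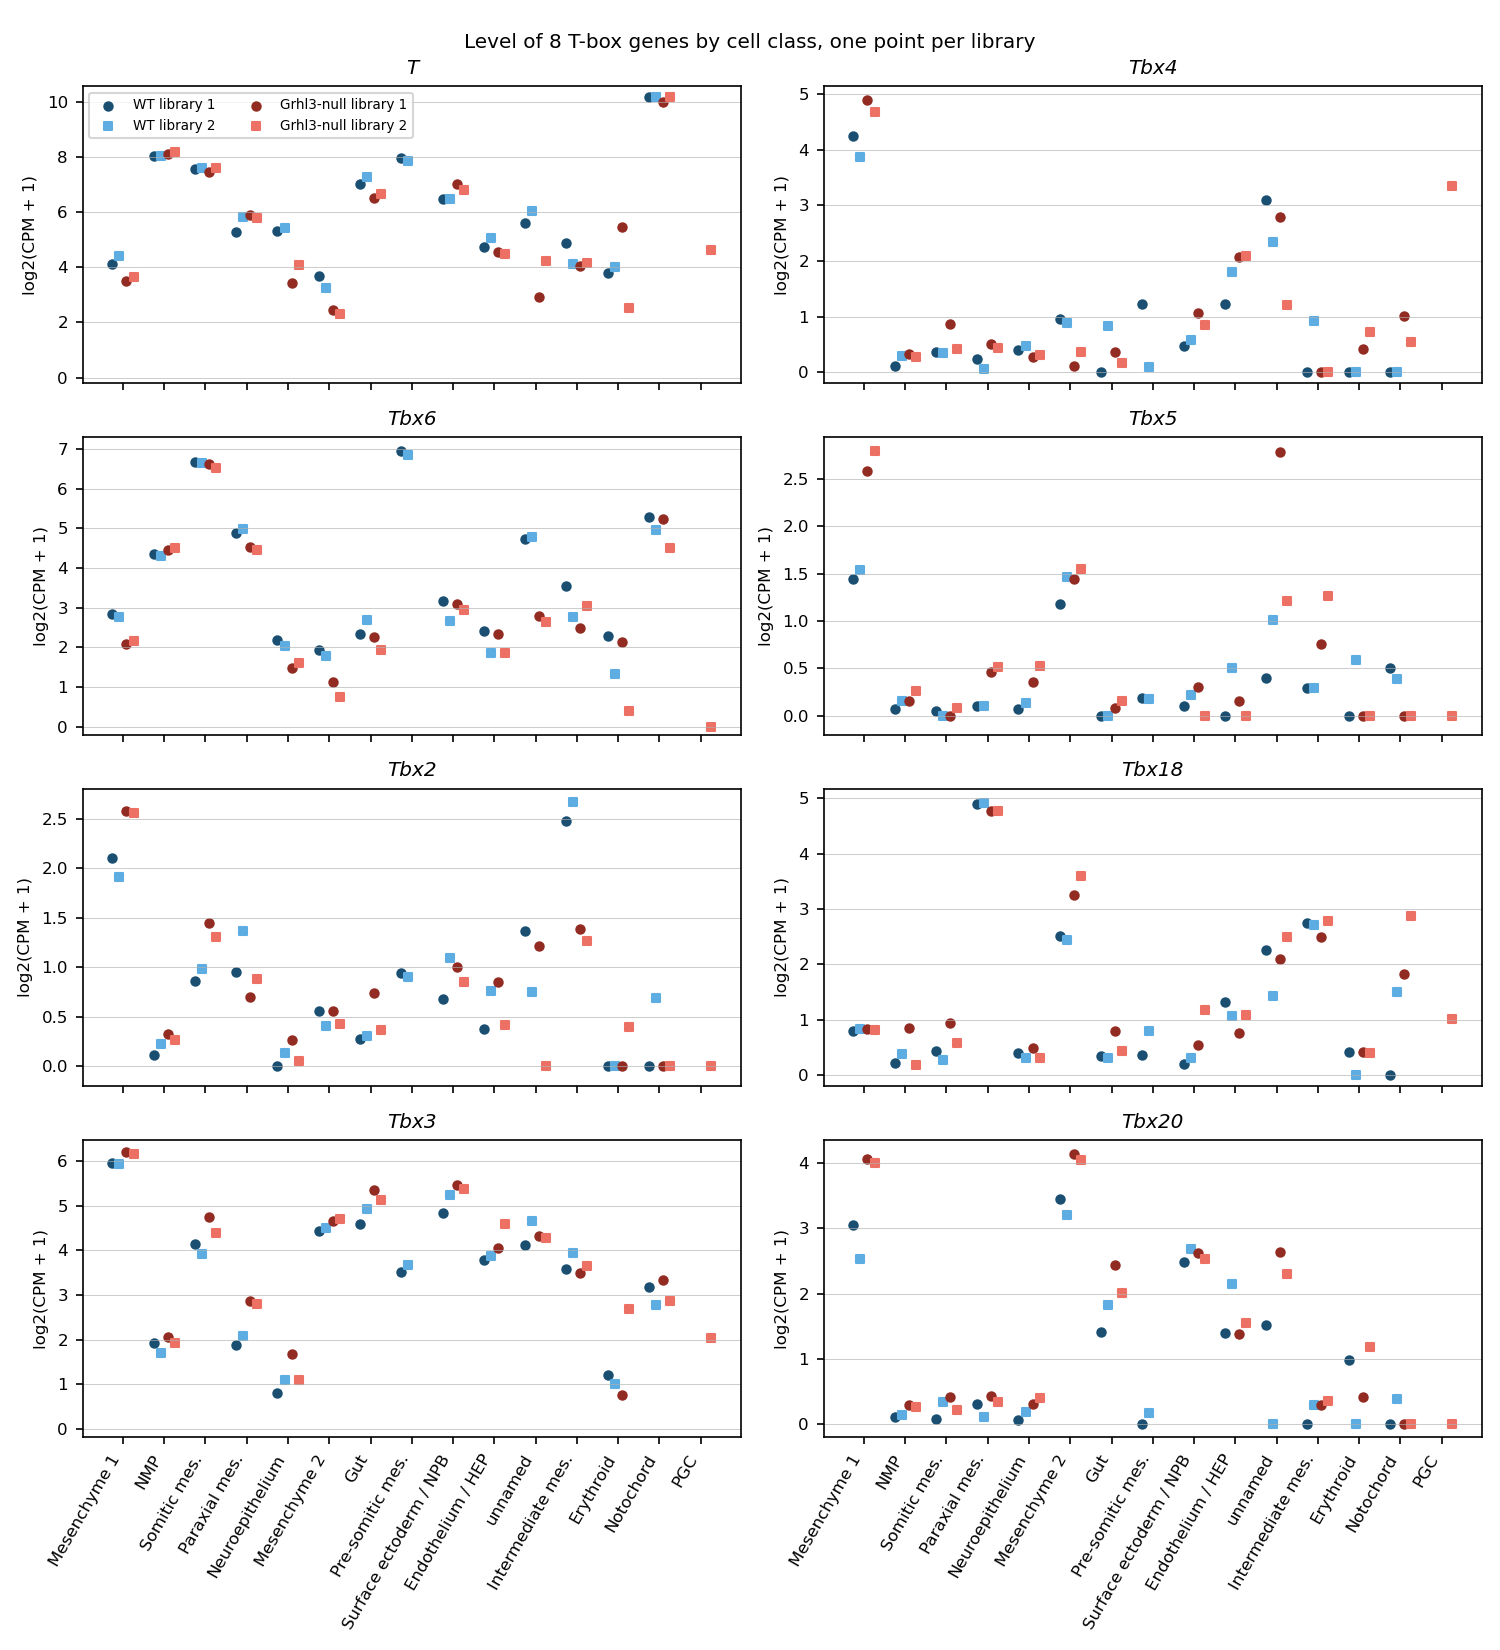
Level of each of the 8 T-box genes by cell class, as log2(CPM + 1) of summed UMIs, with 1 point per library and classes under 20 cells in a library left out. *T* peaks in the notochord-like cells, *Tbx6* in the pre-somitic and somitic mesoderm-like cells, *Tbx18* in the paraxial mesoderm-like cells, and *Tbx3* and *Tbx4* in the Mesenchyme 1-like cells.

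In WT, *T* was highest in the notochord-like cells, at 1144 ± 1.85 CPM, and every one of these cells kept a *T* UMI after thinning. The NMP-like cells followed with 259.6 ± 0.416 CPM, then the pre-somitic mesoderm-like (238 ± 12.1 CPM), somitic mesoderm-like (190.3 ± 5.99 CPM) and gut-like cells (142 ± 17.9 CPM). None of these 5 overlapped with its neighbour in the order. The surface ectoderm/neural plate border-like cells came next at 87.7 ± 0.659 CPM, and from there down neighbouring classes mostly overlapped, with the paraxial mesoderm-like cells at 46.5 ± 12.8 CPM, the neuroepithelium-like cells at 40.2 ± 2.12 CPM and the Mesenchyme 2-like cells lowest at 10.1 ± 2.45 CPM. Although the notochord-like cells had by far the highest level, they held 11.2% of the *T* UMIs of a WT library, because they were few, whereas the NMP-like cells held 33.1% and the somitic mesoderm-like cells 21.4%. After thinning, 65.9% of WT NMP-like cells had a *T* UMI against 15.3% of endothelium-like cells and 19.7% of neuroepithelium-like cells.

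The 3 genes whose WT pattern over 15 classes and 2 libraries (30 values) lay closest to *T* were *Rspo3* (Pearson r 0.916), an R-spondin that enhances Wnt signalling, *Wnt3a* (0.907), a Wnt ligand of the tail bud, and *Mixl1* (0.884), a homeobox gene of the primitive streak. Over 26 values from the *Grhl3*-null libraries, r was 0.909, 0.845 and 0.891. For every member the *Grhl3*-null r left out the pre-somitic mesoderm-like and primordial germ cell-like classes. The genes were also chosen by their WT r, so a lower r in *Grhl3*-null is not read as a genotype difference. The values of a library share its depth and pool, and 9989 to 9990 genes were ranked, so these correlations are descriptive.

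*Tbx6* was highest in the pre-somitic mesoderm-like cells of WT (118.4 ± 5.97 CPM) and next in the somitic mesoderm-like cells (99.7 ± 1.30 CPM). The second of these classes was led by *Cited1*, *Fgf3*, *Dll1*, *Dkk1* and *Dll3*, genes that textbooks place in the presomitic mesoderm, so its name from the study's markers does not mean formed somites. Notochord-like (34.3 ± 5.72 CPM) and paraxial mesoderm-like cells (29.7 ± 1.34 CPM) overlapped, and the NMP-like cells stood at 19.1 CPM. The somitic mesoderm-like cells held 45.1% and the pre-somitic mesoderm-like cells 24.1% of the *Tbx6* UMIs of a WT library. The share of cells with a *Tbx6* UMI after thinning was 57.3% and 50.2% in the pre-somitic and somitic mesoderm-like cells, 11.3% in the NMP-like cells and 2.28% in the endothelium-like cells. The nearest patterns were those of *Dll3* (r 0.924 in WT and 0.916 in *Grhl3*-null), *Hes7* (0.906 and 0.931) and *Dll1* (0.905 and 0.878), all genes of the Notch-driven segmentation clock. Between *T* and *Tbx6* themselves r was 0.675 in WT and 0.768 in *Grhl3*-null.

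*T* and *Tbx6* were then counted in single cells, with the mixed male and female cells left out, since a droplet with more than 1 cell would count as a cell with both genes. Droplets with several cells of the same sex cannot be found this way and remain in these counts and in the other counts of gene pairs below. Among the NMP-like cells, both genes were found in 76 of 771, 83 of 743, 71 of 664 and 81 of 620 cells of WT library 1, WT library 2 and *Grhl3*-null libraries 1 and 2. Of the NMP-like cells with *Tbx6*, 96.2%, 94.3%, 89.9% and 96.4% also had *T*, so *Tbx6* without *T* was rare at this depth. In the somitic mesoderm-like class, both were found in 284 of 831, 274 of 797, 176 of 472 and 160 of 438 cells, and here 67.8%, 68.8%, 69.8% and 76.6% of the *Tbx6* cells had *T*. In the paraxial mesoderm-like class both were found in 17 of 466, 14 of 394, 8 of 414 and 11 of 422 cells. In the notochord-like class, where no cell had *Tbx6* alone, both were found in 15 of 61, 10 of 65, 8 of 37 and 10 of 46 cells. *Sox2* was found together with *T* in 30.6%, 32.3%, 28.0% and 30.8% of the NMP-like cells and in 13.6%, 12%, 3.27% and 5.33% of the neuroepithelium-like cells.

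**Figure D2:**
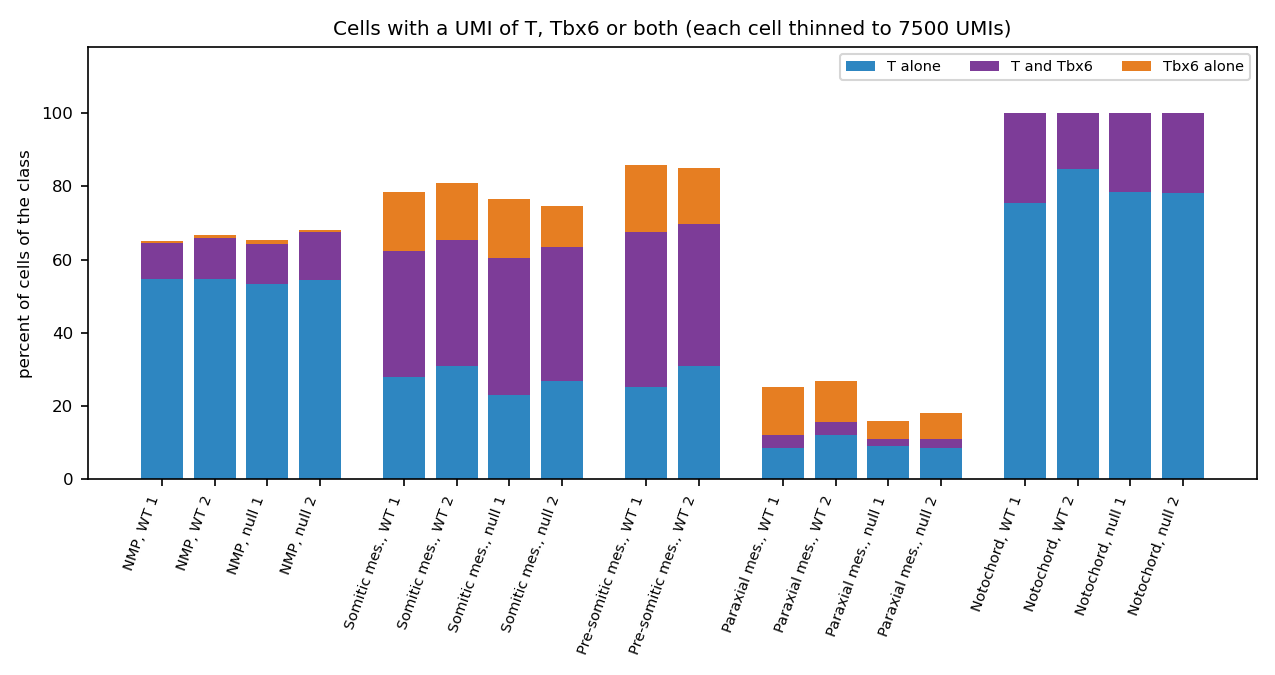
Percent of the cells of each class with a UMI of *T* alone, of *Tbx6* alone or of both, in each library, after each cell was thinned to 7500 UMIs and without the cells that hold both male and female transcripts. The NMP-like cells are mostly *T* alone, the somitic and pre-somitic mesoderm-like cells carry the most cells with both genes, and the 2 genotypes lie close to each other in the NMP-like and somitic mesoderm-like classes.

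Most *Tbx18* UMIs lay in a single class. The WT paraxial mesoderm-like cells, led by the somite genes *Tcf15*, *Meox1* and *Foxc2*, had 29.0 ± 0.464 CPM and held 82.0% of all *Tbx18* UMIs of a WT library. Intermediate mesoderm-like (5.64 ± 0.088 CPM) and Mesenchyme 2-like cells (4.54 ± 0.208 CPM) followed without overlap. After thinning, a *Tbx18* UMI was found in 19.4% of the paraxial mesoderm-like cells and 0.106% of the neuroepithelium-like cells. Its nearest patterns were those of *Foxd2* (r 0.960 in WT and 0.927 in *Grhl3*-null), *Lrrtm3* (0.907 and 0.812) and *Myocd* (0.882 and 0.815).

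*Tbx3* was highest in the Mesenchyme 1-like cells, which are led by *Prrx1*, *Hand2* and *Pitx1*, genes of lateral plate mesoderm and hindlimb field. There it reached 61.0 ± 0.108 CPM in WT, with 45.2% of the *Tbx3* UMIs of a library, and 36% of the thinned cells had a UMI against 0.936% of the neuroepithelium-like cells. The surface ectoderm/neural plate border-like (32.4 ± 6.58 CPM) and gut-like cells (26.3 ± 4.25 CPM) overlapped with each other, as did Mesenchyme 2-like cells (21.2 ± 0.574 CPM) and the unnamed cluster (20.3 ± 5.66 CPM), whose leading gene was *Lefty2* and whose cells had few UMIs. *Bambi* (r 0.860 in WT and 0.905 in *Grhl3*-null), a pseudoreceptor that dampens BMP and TGF-beta signals, *Tmem55a* (0.852 and 0.870) and *Prdm6* (0.838 and 0.864) had the nearest patterns.

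*Tbx2*, the close relative of *Tbx3*, was sparse and reached 5 CPM in neither genotype of any tested class. Its WT levels were 4.96 ± 0.560 CPM in the intermediate mesoderm-like cells, 3.03 ± 0.379 CPM in the Mesenchyme 1-like cells and 1.26 ± 0.450 CPM in the paraxial mesoderm-like cells. In the Mesenchyme 1-like cells without mixed cells, 12 of 15, 10 of 19, 21 of 37 and 25 of 40 thinned cells with a *Tbx2* UMI also had *Tbx3*, against 35.4%, 35.1%, 38.3% and 36.5% of the cells without *Tbx2*. Its nearest patterns in WT were those of *Prrx2* (r 0.821), *Lhx1* (0.820) and *Grem1* (0.798). Their r over the fewer classes of *Grhl3*-null was 0.495, 0.423 and 0.244.

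*Tbx4* UMIs lay almost entirely in the Mesenchyme 1-like cells, at 15.9 ± 3.13 CPM in WT, with 82.4% of the *Tbx4* UMIs of a WT library and 91.1% of those of a *Grhl3*-null library. The 20 WT primordial germ cell-like cells had a level that overlapped with this (16.6 ± 2.67 CPM) but rest on 14 UMIs. Thinned cells with a *Tbx4* UMI made up 9.15% of the WT Mesenchyme 1-like cells and 0.106% of the neuroepithelium-like cells. Among the Mesenchyme 1-like cells, cells with *Tbx2* also had *Tbx4* in 6 of 15, 9 of 19, 20 of 37 and 21 of 40 cases, whereas 9.28%, 7.13%, 11.1% and 11.3% of the cells without *Tbx2* had *Tbx4*. In each of the 4 libraries the share with *Tbx4* was higher among the *Tbx2* cells, which are few. The 3 nearest patterns to *Tbx4*, *Polr2c* (r 0.781), *Aimp1* (0.777) and *Mrpl2* (0.776), are housekeeping genes whose r in *Grhl3*-null was 0.563, 0.571 and 0.540. In WT, *Aimp1* and *Mrpl2* were highest in the primordial germ cell-like cells, a class left out of the *Grhl3*-null r.

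*Tbx5* was sparse, with 1.81 ± 0.137 CPM in Mesenchyme 1-like and 1.52 ± 0.352 CPM in Mesenchyme 2-like cells of WT, 2 classes that overlapped, and 1.66% of the thinned Mesenchyme 1-like cells with a UMI. *Tbx4* and *Tbx5* were seldom in the same cell of the Mesenchyme 1-like class, with 0 of 651, 1 of 580, 3 of 872 and 1 of 812 cells holding both, while 65, 48, 110 and 107 cells held *Tbx4* alone and 8, 10, 17 and 35 cells *Tbx5* alone. Because *Tbx5* itself was found in so few cells, this depth cannot show whether the genes avoid each other. *Tbx5* lay nearest to *5033428I22Rik* (r 0.823 in WT and 0.826 in *Grhl3*-null), *Gm47071* (0.817 and 0.542) and *Foxf2* (0.811 and 0.768).

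*Tbx20* was highest in the Mesenchyme 2-like cells (9.05 ± 1.21 CPM in WT). The Mesenchyme 1-like (6.07 ± 1.79 CPM) and surface ectoderm/neural plate border-like cells (5.01 ± 0.580 CPM) came next and overlapped with each other. The leading genes of the Mesenchyme 2-like cells include *Col3a1*, *Nkx2-3* and *Hlx*, genes of visceral mesenchyme. Among its 30 leading genes this class held 9 of the study's Mesenchyme 2 markers and 5 of its caudal mesoderm markers. Its name depends on the clustering. At resolution 0.8 a cluster of 1255 cells, also led by *Sh3bgr*, *Col3a1*, *Runx1t1* and *Hlx*, took the name of caudal mesoderm, and a cluster of 357 cells that of Mesenchyme 2. A *Tbx20* UMI was found in 5.25% of the thinned Mesenchyme 2-like cells against 0.106% of the neuroepithelium-like cells. In that class *Tbx18* and *Tbx20* were found together in 1 of 403, 0 of 420, 0 of 350 and 0 of 377 cells, with *Tbx18* alone in 13, 14, 25 and 26 and *Tbx20* alone in 21, 21, 30 and 37, counts too low to show whether the genes avoid each other. The nearest patterns were those of *Stard8* (r 0.891 in WT and 0.774 in *Grhl3*-null), *Tmem88* (0.841 and 0.774), an inhibitor of Wnt signalling in heart precursors, and *Popdc2* (0.831 and 0.868), a gene of heart and muscle.

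The genotypes were compared within each of the 13 classes with at least 20 cells in every library. Adjusted p is the Benjamini-Hochberg value of edgeR's quasi-likelihood test over all genes of a class, and a gene was called at an adjusted p under 0.05. A member was present in a class at 5 CPM or more in the mean of either genotype, which held for 40 of 104 comparisons. Of these 40, 33 were present in both genotypes, and in that part 8 were higher and 7 lower in *Grhl3*-null, while the other 7 passed through 1 genotype alone. *Tbx3* in the paraxial mesoderm-like, *Tbx5* in the Mesenchyme 1-like and *Tbx18* in the Mesenchyme 2-like cells passed through *Grhl3*-null alone and were called higher. *T* in the Mesenchyme 2-like and *Tbx6* in the Mesenchyme 1-like cells passed through WT alone and were called lower. For these the limit itself favoured the direction called. In all 40, 11 were higher, 9 lower and 20 not called. Over all 154383 tests of the 13 classes, which have no 5 CPM limit, 5.95% were called higher and 6.79% lower. The share of calls among genes at 5 CPM or more was not computed, so the member counts are not read as an excess. The share of genes at 5 CPM or more whose WT and *Grhl3*-null libraries did not overlap was 55.7%, against 26 of the 40 comparisons here. Non-overlapping libraries are thus common between these pools and single out no gene.

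**Figure D3:**
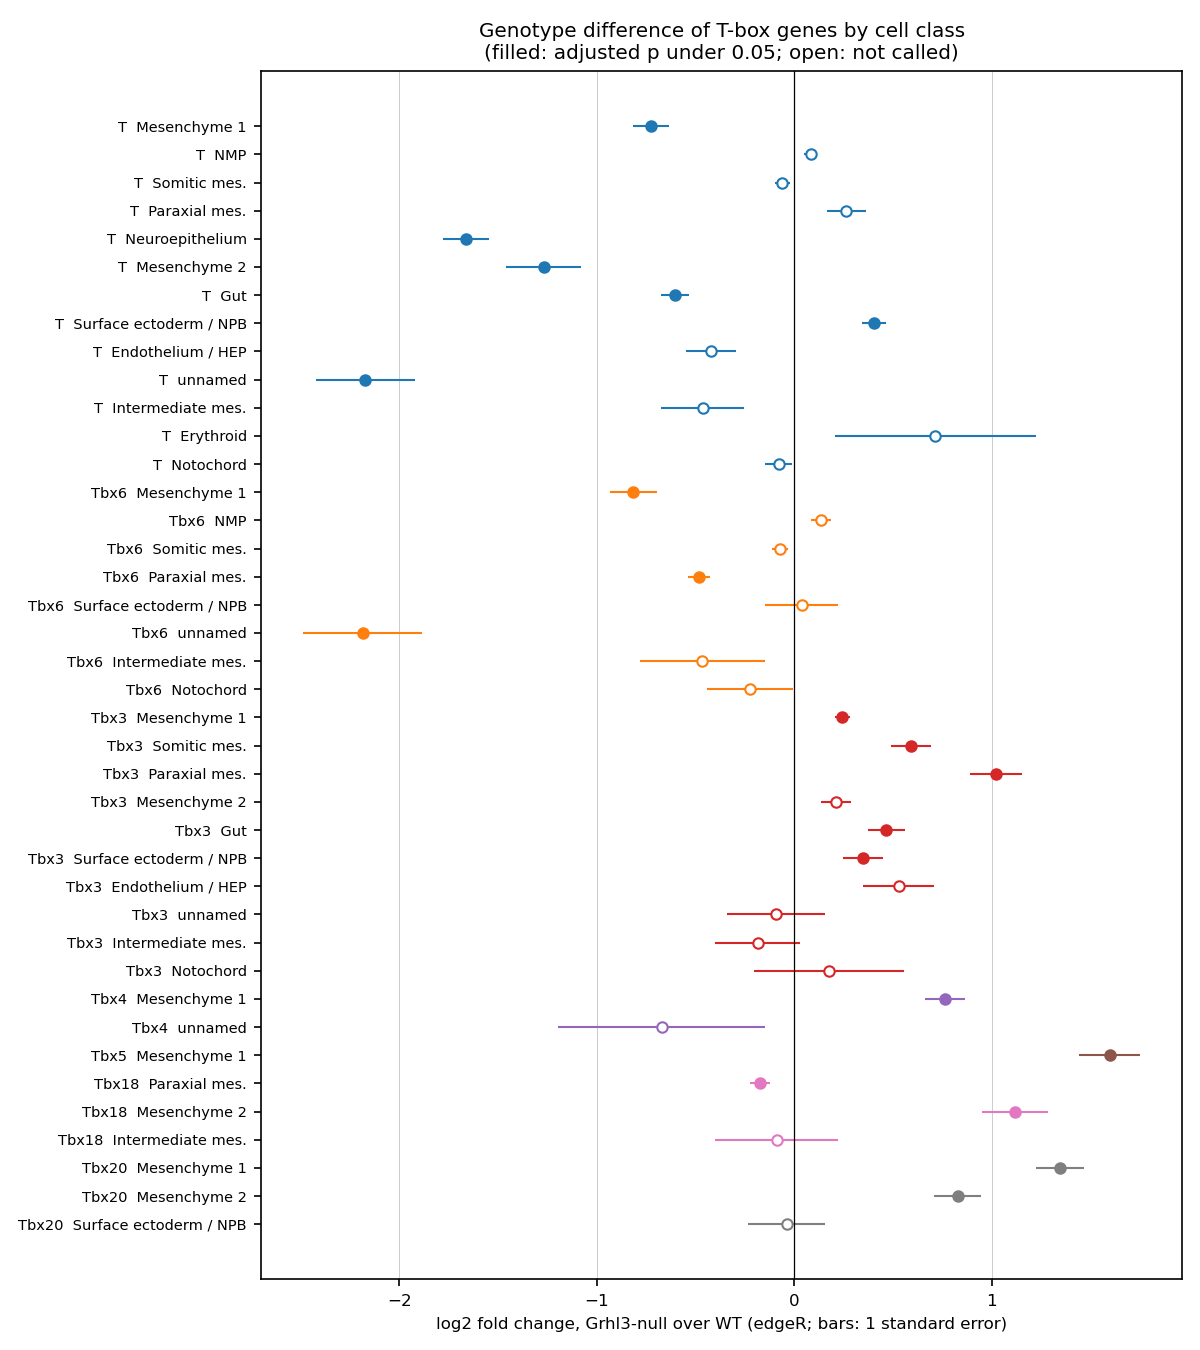
Genotype difference of the T-box genes in each class where they were present, as log2 fold change of *Grhl3*-null over WT with 1 standard error, filled where called. All *Tbx3*, *Tbx4*, *Tbx5* and *Tbx20* calls lie above 0 and all *Tbx6* calls below 0, while *T* and *Tbx18* have calls on both sides. In male or female cells alone several of these turn or lose their call, as given in the text.

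In the classes where *T* was highest its level differed little between the genotypes. The notochord-like cells had 1142 and 1145 CPM in WT and 1014 and 1152 CPM in *Grhl3*-null (log2 fold change −0.08, SE 0.07, adjusted p = 0.65). The NMP-like cells had 259.9 and 259.3 CPM in WT and 270.7 and 286.1 CPM in *Grhl3*-null (log2 fold change 0.08, SE 0.03, adjusted p = 0.099). In the somitic mesoderm-like cells the values were 186 and 194 CPM in WT and 175 and 192 CPM in *Grhl3*-null, which overlap (adjusted p = 0.36).

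The NMP-like value combined opposite differences. Cells of the WT-only female cluster had 147 and 159 CPM of *T* and those of the main NMP-like cluster 313 and 308 CPM in WT and 270.7 and 286.1 CPM in *Grhl3*-null, so that without the first cluster the log2 fold change was −0.15 (adjusted p = 0.021). In female cells *T* rose from 215 ± 0.813 CPM in WT to 292 ± 25.4 CPM in *Grhl3*-null (log2 fold change 0.41, adjusted p = 5.2e-05), and in male cells it fell from 348 ± 1.82 to 275 ± 20.5 CPM (log2 fold change −0.33, adjusted p = 4.9e-04). The 934 WT female cells include those of the WT-only cluster, which has no *Grhl3*-null counterpart and no cell called male. Female cells without that cluster were not compared, so the female rise and the cluster cannot be told apart here. Without the mixed cells the class as a whole was called higher (log2 fold change 0.12, adjusted p = 0.020).

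*T* was called lower in *Grhl3*-null in 5 classes and higher in 1. The neuroepithelium-like cells had 38.7 and 41.7 CPM in WT and 9.86 and 15.9 CPM in *Grhl3*-null (log2 fold change −1.66, SE 0.12, adjusted p = 4.3e-08), in a class where 12.0% of all genes were called lower. This was called in male cells (log2 fold change −0.88, adjusted p = 0.0035) and in female cells (log2 fold change −1.66, adjusted p = 2.0e-08). The *Grhl3*-null share of thinned neuroepithelium-like cells with *T*, 5.81%, was below the 10.7% of the *Grhl3*-null endothelium-like cells and above the 2.37% of the *Grhl3*-null Mesenchyme 2-like cells. In the gut-like cells *T* stood at 129 and 154 CPM in WT and 90.7 and 100.1 CPM in *Grhl3*-null (log2 fold change −0.60, SE 0.07, adjusted p = 3.0e-06, beside 10.0% of all genes lower), with a call in male cells (log2 fold change −0.91, adjusted p = 1.6e-05) and none in female cells (−0.13, adjusted p = 0.64).

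*T* was also lower in both mesenchyme classes and in the unnamed cluster. In the Mesenchyme 1-like cells *T* fell from 16.3 and 20.1 to 10.3 and 11.6 CPM (log2 fold change −0.73, adjusted p = 1.5e-04, beside 4.3% of genes lower) and in the Mesenchyme 2-like cells from 11.9 and 8.39 to 4.48 and 3.95 CPM (log2 fold change −1.27, adjusted p = 2.4e-04, beside 10.1%). The share of thinned WT cells with a *T* UMI was 10.4% in the first and 5.38% in the second, the lowest of all WT classes, and the part of free RNA in these values was not tested. In male cells neither was called. The unnamed cluster had 47.7 and 63.9 CPM in WT and 6.58 and 17.8 CPM in *Grhl3*-null (log2 fold change −2.17, SE 0.25, adjusted p = 3.2e-07, beside 2.18%). The class with higher *T*, the surface ectoderm/neural plate border-like cells, had 88.2 and 87.3 CPM in WT and 127 and 111 CPM in *Grhl3*-null (log2 fold change 0.40, SE 0.06, adjusted p = 1.6e-04, beside 5.82% of genes higher). There the rise was carried by female cells (log2 fold change 0.87, adjusted p = 4.3e-08), with −0.11 and no call in male cells (adjusted p = 0.71), and haemoglobin transcripts summed to 271 CPM in WT library 1 against 26.4 to 33.3 CPM in the other 3 libraries.

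In the paraxial mesoderm-like class *T* was at 37.5 and 55.5 CPM in WT and 58.7 and 54.4 CPM in *Grhl3*-null and was not called (log2 fold change 0.26, adjusted p = 0.066). Leaving out WT library 2, the highest of that pair, gave 0.56 and a call. The mixed cells held 76.1% and 75.1% of the *T* UMIs of this class in the *Grhl3*-null libraries and 46.7% and 46.1% in the WT libraries. Without the mixed cells the levels were 27.2 and 43.3 CPM in WT and 28.1 and 27.4 CPM in *Grhl3*-null (log2 fold change −0.35, adjusted p = 0.094). Here WT library 2 was the highest of all libraries and the other 3 libraries were close together, whereas with the mixed cells *Grhl3*-null library 1 was the highest.

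*Tbx6* did not differ detectably in the class with most of its UMIs. The somitic mesoderm-like cells had 101 and 98.8 CPM in WT and 98.1 and 91.6 CPM in *Grhl3*-null (log2 fold change −0.07, SE 0.04, adjusted p = 0.26). In the NMP-like cells it stood at 19.5 and 18.7 CPM in WT and 20.8 and 21.7 CPM in *Grhl3*-null (log2 fold change 0.13, adjusted p = 0.099), again with opposite signs in male (−0.64, adjusted p = 0.0014) and female cells (0.57, adjusted p = 5.6e-04). As for *T*, the WT female cells include the WT-only cluster.

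*Tbx6* was called lower in 3 classes and higher in none. In the paraxial mesoderm-like cells it fell from 28.8 and 30.7 CPM to 22.3 and 21 CPM (log2 fold change −0.48, SE 0.06, adjusted p = 9.0e-06, beside 12.5% of genes lower), and without the mixed cells from 28.6 and 28.9 to 15.5 and 15.3 CPM (log2 fold change −0.93, SE 0.07, adjusted p = 7.9e-08). This was a difference of the male cells, 49.4 ± 3.73 CPM in WT (127 cells) against 13.7 ± 1.5 CPM in *Grhl3*-null (632 cells), while the female cells had 24.3 ± 1.29 CPM (718 cells) and 24.6 ± 5.83 CPM (127 cells). In the unnamed cluster *Tbx6* fell from 25.4 and 26.4 to 5.92 and 5.26 CPM (log2 fold change −2.19, SE 0.30, adjusted p = 7.4e-06), and in the Mesenchyme 1-like cells from 6.16 and 5.76 to 3.27 and 3.48 CPM (log2 fold change −0.82, adjusted p = 4.2e-04), the last with a call in female (−1.30, adjusted p = 3.0e-05) and none in male cells (−0.24, adjusted p = 0.53).

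*Tbx18* in the paraxial mesoderm-like cells was 28.7 and 29.3 CPM in WT and 26.3 and 26.2 CPM in *Grhl3*-null (log2 fold change −0.17, SE 0.05, adjusted p = 0.019), a call that was lost on leaving out WT library 2 or either *Grhl3*-null library (adjusted p 0.061 to 0.087), without the mixed cells (30.9 and 33.8 against 30.5 and 32.7 CPM, log2 fold change −0.06, adjusted p = 0.62) and was absent in male and female cells alone. In the Mesenchyme 2-like cells *Tbx18* rose from 4.69 and 4.39 to 8.56 and 11.1 CPM (log2 fold change 1.12, SE 0.17, adjusted p = 2.3e-04, beside 9.94% of genes higher). The male cells went from 4.74 ± 1.79 to 11.8 ± 2.28 CPM (adjusted p = 0.0054), and the female cells, at 4.60 ± 0.549 and 5.47 ± 1.21 CPM, were not called (adjusted p = 0.49).

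*Tbx3* was called higher in 5 classes and lower in none. In the Mesenchyme 1-like cells, its main site, it went from 61.1 and 61.0 CPM in WT to 72.6 and 71.1 CPM in *Grhl3*-null (log2 fold change 0.24, SE 0.04, adjusted p = 7.2e-04, beside 5.59% of genes higher). In the gut-like cells it went from 23.3 and 29.3 to 40.0 and 34.2 CPM (log2 fold change 0.47, SE 0.09, adjusted p = 0.0013, beside 9.66%) and in the somitic mesoderm-like cells from 16.6 and 14.1 to 26.0 and 20.1 CPM (log2 fold change 0.59, SE 0.10, adjusted p = 7.7e-04, beside 7.71%). The libraries of the genotypes did not overlap in any of these. The surface ectoderm/neural plate border-like cells had 27.7 and 37.0 CPM in WT and 43.6 and 40.7 CPM in *Grhl3*-null (log2 fold change 0.35, SE 0.10, adjusted p = 0.025), a call that ended without WT library 1 (0.15, adjusted p = 0.35) or without *Grhl3*-null library 1 (0.29, adjusted p = 0.072). The paraxial mesoderm-like cells had 2.68 and 3.23 CPM in WT and 6.26 and 5.90 CPM in *Grhl3*-null (log2 fold change 1.02, SE 0.13, adjusted p = 3.3e-05, beside 9.36%).

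Most of these rises of *Tbx3* were called in female cells and not in male cells. In female cells the log2 fold change was 0.31 (Mesenchyme 1-like, adjusted p = 1.0e-04), 1.00 (gut-like, adjusted p = 2.8e-05), 1.06 (somitic mesoderm-like, adjusted p = 5.8e-09) and 0.84 (surface ectoderm/neural plate border-like, adjusted p = 8.9e-05). In male cells it was 0.15, −0.06 and 0.04 in the first 3, none of them called, and in the surface ectoderm/neural plate border-like cells *Tbx3* was called lower (−0.38, adjusted p = 0.038). The male Mesenchyme 1-like cells stood at 64.7 ± 2.52 CPM in WT and 71.1 ± 1.24 CPM in *Grhl3*-null. In that class the interaction of genotype and sex was not called, so a difference between the sexes is not shown there. The paraxial mesoderm-like class was the exception, with a call in male (2.98, adjusted p = 0.0051) and none in female cells (0.38, adjusted p = 0.71). The male WT value there rests on 4 UMIs in 127 cells (0.570 ± 0.413 CPM), and the male *Grhl3*-null cells had 4.56 ± 2.07 CPM. Of the 472 *Grhl3*-null UMIs of this class, 137 lay in male and 19 in female cells. The interaction of genotype and sex was not called in this class.

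*Tbx2* in the Mesenchyme 1-like cells was 3.30 and 2.76 CPM in WT and 4.97 and 4.89 CPM in *Grhl3*-null, just under the limit set for presence (log2 fold change 0.71, SE 0.13, adjusted p = 0.0034). In the intermediate mesoderm-like cells it went the other way, from 4.56 and 5.35 to 1.61 and 1.41 CPM (log2 fold change −1.66, SE 0.43, adjusted p = 0.031), on 44 WT and 12 *Grhl3*-null UMIs, and this call was lost without the mixed cells (adjusted p = 0.12). The difference between these effects was tested and called (log2 2.38, SE 0.42, adjusted p = 0.0036). Below the limit, 10 comparisons of the 8 members were called in all.

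*Tbx4* in the Mesenchyme 1-like cells was 18.1 and 13.7 CPM in WT and 29.0 and 24.7 CPM in *Grhl3*-null (log2 fold change 0.76, SE 0.10, adjusted p = 1.8e-04). In female cells it stood at 10.3 ± 2.34 CPM in WT and 30.05 ± 2.90 CPM in *Grhl3*-null (adjusted p = 2.1e-09), and in male cells at 22.1 ± 3.96 and 23.5 ± 3.10 CPM (adjusted p = 0.64). The WT female cells were thus the low group, and the other 3 groups lay close together. *Tbx5* in the same class was 1.72 and 1.91 CPM in WT and 5.02 and 5.97 CPM in *Grhl3*-null (log2 fold change 1.60, SE 0.15, adjusted p = 1.0e-05), and it was called in female cells (2.56 ± 0.404 against 4.46 ± 0.082 CPM, adjusted p = 0.0068) and in male cells (1.03 ± 0.0691 against 7.21 ± 2.11 CPM, adjusted p = 1.1e-07). In the Mesenchyme 2-like cells, whose WT level of *Tbx5* overlapped with that of the Mesenchyme 1-like cells, the genotype effect was smaller by 1.32 on the log2 scale (SE 0.34, adjusted p = 0.024 for the difference).

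*Tbx20* was higher in *Grhl3*-null in both mesenchyme classes. The Mesenchyme 1-like cells had 7.34 and 4.81 CPM in WT and 15.7 and 15.0 CPM in *Grhl3*-null (log2 fold change 1.35, SE 0.12, adjusted p = 6.6e-06), called in male (0.54, adjusted p = 0.031) and female cells (1.94, adjusted p = 9.8e-09). The Mesenchyme 2-like cells had 9.91 and 8.20 CPM in WT and 16.6 and 15.6 CPM in *Grhl3*-null (log2 fold change 0.83, SE 0.12, adjusted p = 1.6e-04). Within sexes this class split further than any other present member comparison. Female cells rose from 4.26 ± 0.297 CPM (682 cells) to 24.9 ± 3.10 CPM (182 cells), with an adjusted p of 4.3e-09, and male cells fell from 28.8 ± 6.19 CPM (114 cells) to 11.9 ± 1.18 CPM (505 cells), with an adjusted p of 2.6e-05.

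Male and female cells of a pool come from different embryos, so this split compares other embryos of the same 2 pools. It could be made for 28 of the 40 comparisons. Only 3 were called in the same direction in both sexes: *T* lower in the neuroepithelium-like cells, and *Tbx5* and *Tbx20* higher in the Mesenchyme 1-like cells. Of these, *Tbx5* passed the presence limit through *Grhl3*-null alone, and the counts below also include comparisons that passed through 1 genotype alone. A further 4 were called in opposite directions, 17 in 1 sex alone and 4 in neither. In male cells 5 of the 28 were called higher and 9 lower, against 5.25% and 5.18% of all genes over the 9 classes tested, and in female cells 13 were higher and 4 lower, against 7.65% and 8.46% over 10 classes. These shares of all genes again have no 5 CPM limit. The interaction of genotype and sex was called for 24 of 36 comparisons tested, the sums over all cells included.

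**Figure D4:**
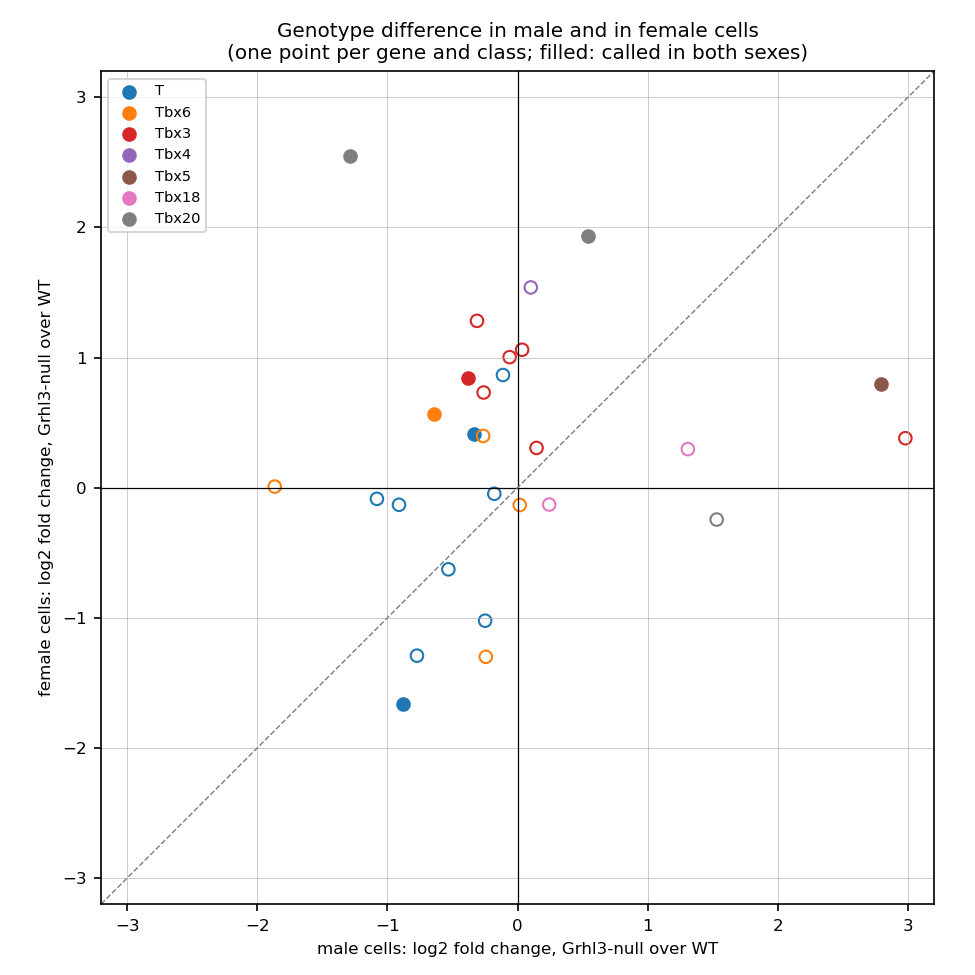
Genotype difference in male cells (horizontal axis) against that in female cells (vertical axis), each as log2 fold change of *Grhl3*-null over WT, with 1 point per gene and class for the 28 present comparisons and filled points called in both sexes. Of the 28 points, 13 lie in the quadrants where the sexes have opposite signs, and the 3 called the same way in both sexes are *T*, *Tbx5* and *Tbx20*. Of these, *Tbx5* passed the presence limit through *Grhl3*-null alone.

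**Figure D5:**
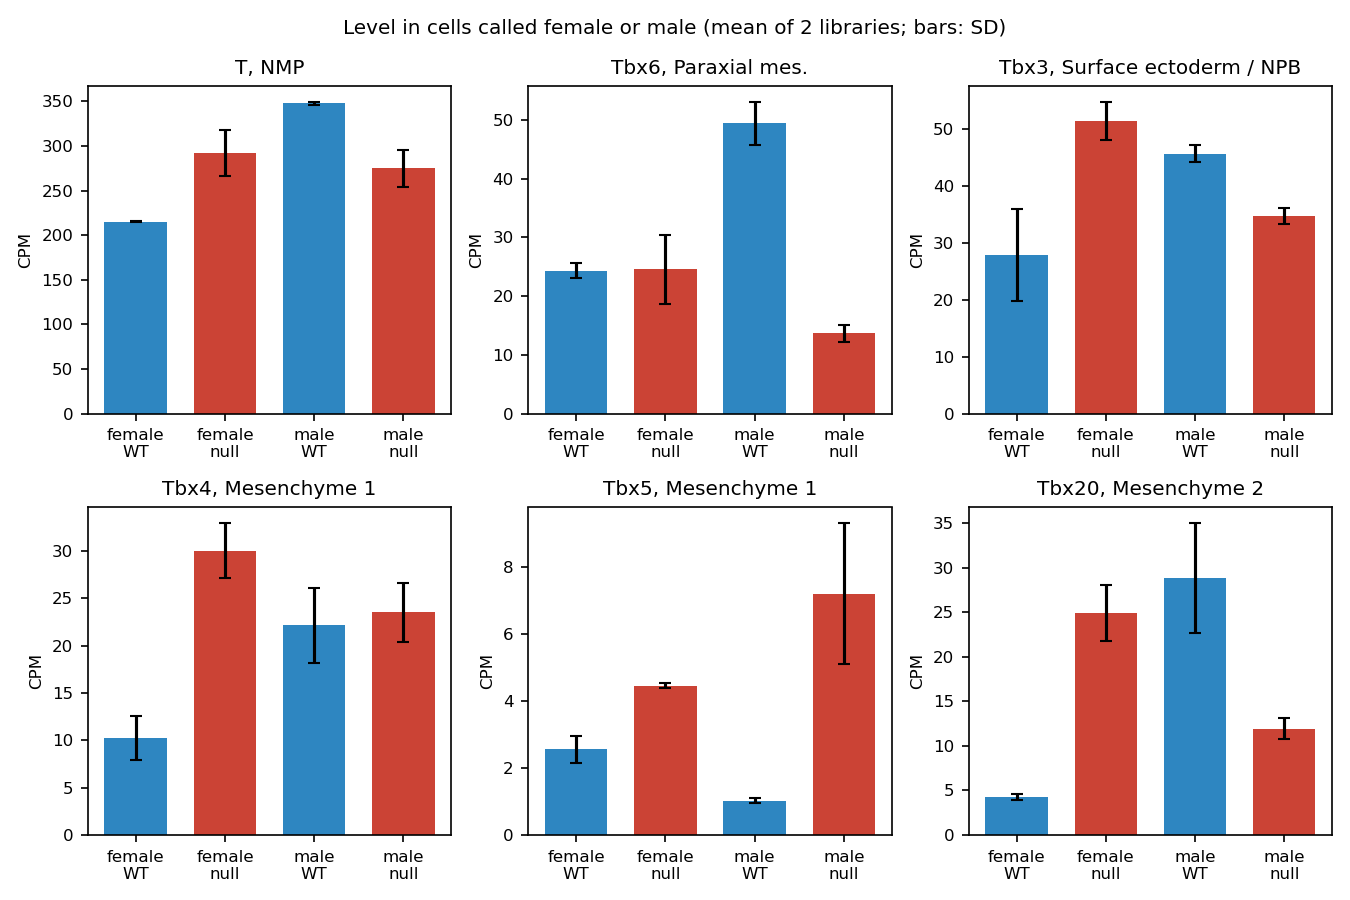
Level in CPM of 6 members in the class named above each panel, in female and male cells of WT and *Grhl3*-null, as mean of 2 libraries with SD bars. *Tbx20* in the Mesenchyme 2-like cells goes from 4.26 to 24.9 CPM in female and from 28.8 to 11.9 CPM in male cells, and *Tbx6* in the paraxial mesoderm-like cells drops in male cells alone.

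Summed over all cells of a library, where fewer cells of a type and less RNA per cell cannot be told apart, 6 members were higher and 2 lower in *Grhl3*-null, beside 17.1% and 18.5% of all genes. *Tbx6* fell from 32.1 and 32.1 CPM to 18.6 and 16.9 CPM (log2 fold change −0.88, SE 0.04, adjusted p = 1.4e-05), and by less without the WT-only clusters (−0.62). *T* fell from 124 and 134 CPM to 97.7 and 99.2 CPM (log2 fold change −0.42, SE 0.04, adjusted p = 1.7e-04), from 148 ± 1.91 to 73.9 ± 1.03 CPM in male cells and with 122 ± 9.70 and 123 ± 4.58 CPM in female cells. *Tbx5* rose from 0.362 and 0.471 to 1.20 and 1.34 CPM (log2 fold change 1.58, SE 0.14, adjusted p = 2.1e-04), and *Tbx5* and *Tbx6* were the members called in the same direction in both sexes. *Tbx20* (log2 fold change 1.15), *Tbx4* (2.84 and 2.25 against 5.78 and 4.59 CPM), *Tbx2* (0.43) and *Tbx3* (0.43) were called higher, all 4 also in female cells, although *Tbx2* lost its call without WT library 1 (0.36, adjusted p = 0.086) or *Grhl3*-null library 1 (0.33, adjusted p = 0.054). In male cells *Tbx3* (−0.30, adjusted p = 0.0097) and *Tbx4* (−0.53, adjusted p = 0.029) were called lower. *Tbx18* (log2 fold change 0.42, adjusted p = 6.8e-04) rose in male cells (1.57) and fell in female cells (−1.29), and was not called without the mixed cells (0.18, adjusted p = 0.089).

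Other genes of the same pathways were followed as lists. In the neuroepithelium-like cells, where *T* fell, 7 of 13 tested posterior progenitor genes were lower and 1 was higher, against 12.0% and 10.1% of all genes, with a median log2 fold change of −0.89 beside 0.00 over all genes, among them *Fgf8* (−2.01), *Evx1* (−1.70), *Cyp26a1* (−1.57) and *Cdx2* (−1.41). Posterior Hox genes moved along with these, at 171 and 161 CPM summed in WT and 1.62 and 0.479 CPM in *Grhl3*-null. The fall of posterior progenitor genes was not particular to this class. In the other classes with lower *T*, it covered 11 of 13 in the gut-like and 10 of 13 in the Mesenchyme 1-like cells. It covered 10 of 13 in the unnamed cluster and 6 of 13 in the Mesenchyme 2-like cells. In the Mesenchyme 1-like cells 1 was higher, and none was in the others. In the paraxial mesoderm-like cells, where *Tbx6* fell, 8 of 12 presomitic genes were lower and 1 was higher, against 12.5% and 9.36% of all genes (median −0.54), including the segmentation genes *Mesp2* (−2.01) and *Mesp1* (−1.90). As for *Tbx6* itself, 9 of 11 were lower in male cells, where 884 of all 11569 genes tested were lower, and 2 of 11 in female cells, where 730 of 11452 were. Posterior progenitor genes in that class were called higher in 8 and lower in 1 of 14 cases, and without the mixed cells in 1 and 4.

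In the Mesenchyme 1-like cells, 8 of 20 tested lateral plate, heart and limb genes were higher and 2 lower, against 5.59% and 4.3% of all genes (median 0.13). *Prrx1*, a gene of limb mesenchyme, rose from 90.9 to 132 CPM (log2 fold change 0.55) and *Gata5*, a factor of heart and lateral plate, from 4.15 to 8.72 CPM (1.08), while *Foxf1*, a gene of visceral mesoderm, fell (−0.31). In the Mesenchyme 2-like cells, where *Tbx18* and *Tbx20* rose, 9 of 20 were higher and 6 lower, against 9.94% and 10.1% of all genes (median 0.14). Genes induced by tissue dissociation also moved in this class, with 5 of 10 lower and none higher (median −0.63), and in the surface ectoderm/neural plate border-like class, with 5 of 9 lower and 1 higher (median −0.51). Their part in the member differences was not tested. Of the lateral plate, heart and limb genes, *Gata4* (1.91) and *Myl7* (1.70) were among those that rose in the Mesenchyme 2-like cells. *Pitx1* (−2.24) and *Isl1* (−0.98) were among those that fell in that class, and all 8 posterior Hox genes tested fell there too. Single genes of this list do not show a direction for heart or limb genes as a group. Of the 9 other T-box genes in the tables, 1 or 2 passed the count filter in a class and 7 over all cells, and none of those was called. Within a sex, over all cells, 1 was called higher in male cells, and 1 higher and 1 lower in female cells, and 1 was higher in each of the female paraxial mesoderm-like and neuroepithelium-like cells. *Mga*, at 84.0 to 89.1 CPM in all libraries, was the single one above 1 CPM over all cells.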

How the data were processed

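The authors deposited, for each of the 4 libraries, a matrix of raw UMI counts per gene and cell barcode. According to the methods and the submitters' processing notes these counts came from Cell Ranger (version 3.0.0) run on the mm10 genome, and the annotation release is not given in the sources used here. From 6186, 5698, 6177 and 6178 barcodes, those under 3000 genes, under 7500 UMIs or over 7% mitochondrial UMIs were removed, leaving the analysed cells (20198 cells, 209833527 to 226723903 UMIs per library). Libraries were merged without integration, and SCTransform (Seurat 5.3.0, sctransform 0.4.2, R 4.3.3) with 3000 variable features less all T-box genes, 30 principal components, 20 neighbours and resolution 0.4 gave the clusters. A cluster took the name with the most of the study's markers, *T* and *Tbx6* removed, among its 30 leading genes, with at least 3 of them and more than 1.5 times the next name. Scrublet's automatic threshold marked at most 0.0627% of cells and so had not worked. No cell was removed as a doublet in the reported values, and removal of the 5% with the highest scores was an alternative.

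UMI counts were summed per class and library and tested with edgeR 4.0.16 (TMM, filterByExpr, quasi-likelihood, two-sided, Benjamini-Hochberg adjustment over all genes of a fit), with DESeq2 1.42.0 as an alternative. The fits were tested on simulated data. Sex was assigned per cell from *Xist* and 4 Y-linked genes: a male cell had 2 or more Y-linked UMIs with no more than 2 of *Xist*, a female cell had 3 or more of *Xist* with no more than 1 Y-linked UMI, and a cell over both minima was mixed. Replicate libraries differed by more than counting error (chi-square per degree of freedom 8.20 in WT and 14.4 in *Grhl3*-null), so each counted once. Likeness was Pearson's r of log2(CPM + 1) among genes with at least 10 CPM in a WT class. Genes named are the 8 members, the 3 genes nearest to each, list genes called where a member of the same axis was called, and *Grhl3*. Leading genes that describe a cluster were chosen after their values were seen. The members, lists and tests were chosen with earlier results of these data known, and the marker lists had been selected by the study on these libraries, so neither is independent evidence. Alternatives were another normalization, no count filter, each library left out, a replicate block, other clusterings, removal of the highest doublet scores, a 5% mitochondrial limit, each sex alone and a minimum log2 fold change of 1. Added after seeing the data were the exclusion of WT-only clusters and of mixed cells. Promoters were read from a RefSeq table, in which *Tbx2*, *Tbx3* and *Tbx5* were not found by symbol. Counts were per gene from 3′ reads, so no order of levels between genes was drawn.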

Additional observations from a re-analysis of the deposited data

Results flagged for a closer look

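The genotype difference (*Grhl3*-null over WT, log2) was not the same in male and female cells for the following members, by edgeR's test of the interaction of genotype and sex (adjusted p under 0.05). Each value is the effect in male cells minus that in female cells. In the Mesenchyme 1-like class it was 2.00 for *Tbx5* (SE 0.38), 1.06 for *Tbx6* (SE 0.27), 0.77 for *T* (SE 0.16), −1.39 for *Tbx20* (SE 0.27) and −1.44 for *Tbx4* (SE 0.18). In the Mesenchyme 2-like class it was −3.83 for *Tbx20* (SE 0.26, adjusted p = 8.1e-11) and −0.99 for *Tbx3* (SE 0.19). In the NMP-like class, whose WT female cells include the WT-only cluster, it was −1.21 for *Tbx6* (SE 0.14) and −0.74 for *T* (SE 0.07). In the surface ectoderm/neural plate border-like class it was −1.21 for *Tbx3* (SE 0.20), −0.96 for *T* (SE 0.20) and 1.79 for *Tbx20* (SE 0.56, adjusted p = 0.039). In the gut-like class it was −1.06 for *Tbx3* (SE 0.20) and −0.78 for *T* (SE 0.20). *Tbx6* differed by −1.86 in the paraxial mesoderm-like class (SE 0.19), *Tbx3* by −1.02 in the somitic mesoderm-like class (SE 0.24) and *T* by 0.78 in the neuroepithelium-like class (SE 0.30, adjusted p = 0.048).

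Over all cells the same difference was 2.86 for *Tbx18*, −3.17 for *Tbx4*, −2.26 for *Tbx20*, −1.52 for *Tbx3*, −1.05 for *Tbx2*, −0.99 for *T* and −0.71 for *Tbx6*. The genotype difference also varied between classes for 2 of 8 members tested in their leading pair of classes, by 2.38 for *Tbx2* (Mesenchyme 1-like minus intermediate mesoderm-like) and by −1.32 for *Tbx5* (Mesenchyme 2-like minus Mesenchyme 1-like). Male and female cells stem from different embryos of 2 pools, so embryo and sex cannot be told apart.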

How the results depend on the processing

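Of 68 recomputed counts of calls, 60 stayed within 1.5 times of the 11 higher and 9 lower comparisons in classes and the 6 higher and 2 lower sums over all cells. In male cells alone 3 class comparisons were higher, with 2 sums higher and 4 lower, and in female cells alone 4 class comparisons were lower, with presence decided in the cells of that sex. A log2 fold change of at least 1 left 4 higher and 4 lower class comparisons and 2 higher and 0 lower sums. DESeq2 called 9 higher and 8 lower class comparisons. Leaving out each library gave 10 to 13 higher and 8 to 10 lower class comparisons, and 5 to 6 higher and 2 lower sums, with the lone library of a genotype assumed to vary like the other pair.

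With the replicate number as a block, 13 class comparisons were higher and 9 lower, and *T* in the NMP-like (0.08, adjusted p = 0.021) and paraxial mesoderm-like cells (0.27, adjusted p = 0.026) gained a call. The deviations of same-numbered libraries correlated weakly (r 0.0779 over all cells, −0.0661 to 0.121 by class), and with 2 pairs the numbers only name reactions.

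Of 764 recomputed fold changes, 30 lost the call in the same direction, 25 gained one, and 17 reversed with a call before or after. The other 692 kept direction and call or were not called in either fit, and those without a call may have changed sign. Among those lost, DESeq2 ended the calls of *Tbx3* in the somitic mesoderm-like (adjusted p = 0.12) and surface ectoderm/neural plate border-like cells (adjusted p = 0.21), and testing every gene ended that of *Tbx3* in the gut-like cells (adjusted p = 0.079). The reversals in male cells were *T* in the NMP-like (−0.33), paraxial mesoderm-like (−1.08) and surface ectoderm/neural plate border-like cells (−0.11), *Tbx6* in the NMP-like cells (−0.64), *Tbx3* in the gut-like (−0.061) and surface ectoderm/neural plate border-like cells (−0.38), *Tbx18* in the paraxial mesoderm-like cells (0.24), *Tbx20* in the Mesenchyme 2-like (−1.29) and surface ectoderm/neural plate border-like cells (1.53), and, over all cells, *Tbx2* (−0.018), *Tbx3* (−0.30) and *Tbx4* (−0.53). In female cells they were *Tbx6* in the paraxial mesoderm-like cells (0.0085) and *Tbx18* over all cells (−1.29). Clustering on log-normalised counts reversed *T* in the NMP-like (−0.15) and *Tbx3* in the Mesenchyme 2-like cells (−0.37), and excluding the WT-only cluster reversed *T* in the NMP-like cells (−0.15). The cause was not tested. Of the alternatives chosen after seeing the data, excluding mixed cells gave 13 higher and 8 lower class comparisons, and excluding the WT-only cluster 11 and 10. *Tbx2* and *Tbx5* rest on few UMIs, which limits their precision.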
